A study of Mus musculus with 6 samples.

Results

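Vgf, Stmn2, Tubb3, Nrep and Ctxn1 are 5 genes best known from neurons and neuroendocrine cells, and all 5 stood higher in mouse aortic smooth muscle cells after knockdown of Sirt6. They were taken by gene name from the 6 library tables, which list 7384 genes, and each name matched 1 row. The genes were chosen by their measured rise in this very comparison, in the same 6 libraries, so their differences are given below as a description, with no test. The study set 3 libraries from cells that had received a small interfering RNA against Sirt6 (siSirt6) against 3 libraries labelled Control, each at 48 h. Both groups were vascular smooth muscle cells grown from mouse aorta. Strain, age and sex of the mice, passage number, and what the Control cells received are not stated in the sources at hand, and nothing says whether the 3 libraries of a group came from separate animals or separate cultures. If they did not, the p-values given below for other genes measure only a technical spread.

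Neurons and endocrine cells secrete peptides through a regulated route. Peptide precursors are packed into dense-core vesicles, cut by prohormone convertases and released on stimulation. Neurons also carry their own set of tubulins and tubulin-binding proteins, which shape the growth cone and the axon. In most other cells the repressor REST, which binds the RE1 element together with the CoREST proteins and histone deacetylases, keeps many such genes low. Smooth muscle cells in culture can change state and are known to gain and lose genes outside the contractile programme.

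Promoter sequence was at hand for 2 of the 5 genes, Tubb3 and Ctxn1, in a RefSeq table on GRCm38.p6 that runs from 250 bases before to 50 bases after each start. The stretches ahead of the start that overlap no exon annotated by GENCODE are shown because both genes were higher in the same libraries, with GC boxes (GGGCGG on either strand) in capitals. The Tubb3 stretch is chr8:123411303-123411423 on the plus strand and the Ctxn1 stretch chr8:4259275-4259524 on the minus strand, both written 5′ to 3′.
Tubb3: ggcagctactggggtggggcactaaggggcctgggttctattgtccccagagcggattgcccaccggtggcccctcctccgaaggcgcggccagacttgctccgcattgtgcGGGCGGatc
Ctxn1: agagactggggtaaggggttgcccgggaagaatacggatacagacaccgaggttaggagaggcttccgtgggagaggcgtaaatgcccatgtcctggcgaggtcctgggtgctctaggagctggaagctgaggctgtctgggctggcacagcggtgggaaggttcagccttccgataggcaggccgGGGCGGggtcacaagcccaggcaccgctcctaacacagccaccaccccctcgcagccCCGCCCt

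Within the full windows, GGGCGG occurred 2 times at each gene, starting at positions -138 and -46 for Tubb3 and at -64 and -7 for Ctxn1, counted from the RefSeq start. Of 32851 windows in the table, 35.7% held GGGCGG on either strand. The left arm of the RE1 element (TTCAGCACC) was in neither window and in 0.371% of all windows. The right arm (GGACAG) occurred in the Tubb3 window, 12 bases past the start on the opposite strand, and in 22.2% of all windows. CCAAT occurred once for Tubb3, at -77 on the opposite strand, against 37.4% of all windows, while neither gene's window held the cyclic AMP response element TGACGTCA or TATAAA, which 1.79% and 13.6% of windows held. The GENCODE start of Tubb3, at 123411424, comes directly after the stretch shown, which ends at position -130. The Tubb3 matches at -77 and -46 therefore lie ahead of the RefSeq start but past the GENCODE start. These letter matches are a description of the windows and do not show binding.

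The targeted gene checked the labels first. Sirt6, an NAD-dependent deacylase, stood at 44.5, 59.8 and 63.5 normalised reads in the siSirt6 libraries, against 252, 257 and 270.4 in the Control libraries, where a normalised read count is the number of reads on a gene divided by 1 factor per library. It fell to 0.215 of its Control level (limma adjusted p = 1.16e-15). The listed genes took between 14614192 and 15526399 reads in siSirt6 libraries and between 14458847 and 14563794 in Control libraries. Of 7179 genes with enough reads to test, 99.8% passed an adjusted p of 0.05, 50.5% as higher and 49.3% as lower in siSirt6. The tables therefore hold almost only genes that differ, and passing the test says little about any gene in them. Differences between replicates exceeded sampling noise for all 6 pairs of libraries of a group, with a chi-square per gene between 1.94 and 2.49, so no library was a copy of another.

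Vgf encodes a secreted precursor of neurons and endocrine cells that is cut into several bioactive peptides. It stood at 765, 708 and 733 normalised reads in the siSirt6 libraries, against 98.6, 112 and 119 in the Control libraries. Even the lowest siSirt6 library was 5.96 times the highest Control library. The means were 735 ± 28.7 in siSirt6 and 109.8 ± 10.3 in Control (SD, n = 3 each), a 6.70-fold ratio and a log2 fold change of 2.74 (SE 0.090). Fold ratios throughout are ratios of group means, and log2 fold changes are on the log2(value + 1) scale. Only 15 of the tested genes had a larger ratio than Vgf, which took rank 16. Nothing follows from that rank, since Vgf was chosen for its rise.

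Stmn2 encodes stathmin-2, a tubulin-binding protein of the growth cone that destabilises microtubules. It was the lowest of the 5 and the least precise, at 35.6, 48.5 and 66.6 normalised reads in siSirt6 libraries and at 12.7, 4.87 and 13.5 in Control libraries. The groups did not overlap, yet the Control libraries rested on 13, 5 and 14 reads. Its mean was 50.2 ± 15.6 in siSirt6 and 10.4 ± 4.77 in Control (SD, n = 3 each), a 4.85-fold ratio and a log2 fold change of 2.24 (SE 0.337). The test took genes that reached 10 normalised reads in 3 or more libraries. For Stmn2 only 2 Control libraries did so, and it entered through the group in which it was high. Among the 205 tested genes with a Control mean of at most 20, Stmn2 included, 21.5% were at least 4-fold higher.

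Tubb3, the beta-tubulin isotype used as a marker of neurons, was the most abundant of the 5. It stood at 3039, 2875 and 3033 normalised reads in siSirt6 libraries, against 1288, 1355 and 1320.2 in Control libraries. Both groups were tight and far apart, with means of 2982 ± 92.7 in siSirt6 and 1321 ± 33.7 in Control (SD, n = 3 each). The ratio of 2.26 was the smallest of the 5, with a log2 fold change of 1.17 (SE 0.037). Of 2794 tested genes with a Control mean of at least 1000, 12 were at least 2-fold higher (0.429%), a count that includes Tubb3 and from which nothing follows, since Tubb3 was chosen for its rise.

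Nrep, also called P311, encodes a small protein described in regenerating neurons, in wound myofibroblasts and in smooth muscle, where it has been tied to translation of TGF-beta. It stood at 494, 486 and 454 normalised reads in siSirt6 libraries, against 105, 125 and 117 in Control libraries. The means were 478 ± 21.4 in siSirt6 and 116 ± 9.68 in Control (SD, n = 3 each), a 4.13-fold ratio and a log2 fold change of 2.04 (SE 0.097). The lowest siSirt6 library was 3.64 times the highest Control library.

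Ctxn1 encodes cortexin, a small membrane protein enriched in neurons of the cortex. Its values were 483, 363 and 411 normalised reads in siSirt6 libraries and 107, 107 and 87.9 in Control libraries. Here the siSirt6 libraries spread more widely, at 419 ± 60.2, than the Control libraries at 101 ± 11.2 (SD, n = 3 each). The ratio was 4.16, with a log2 fold change of 2.04 (SE 0.113). Vgf, Nrep and Ctxn1 all had Control means between 50 and 200. In that band 5 of 947 tested genes (0.528%) were at least 4-fold higher, and these 3 are among the 5. Nothing follows from that count, since the 3 genes were chosen for their rise. Nrep and Ctxn1 lay just past 4-fold, and with libraries scaled to their listed totals both had a log2 fold change of 1.92, short of 4-fold.

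**Figure D1:**
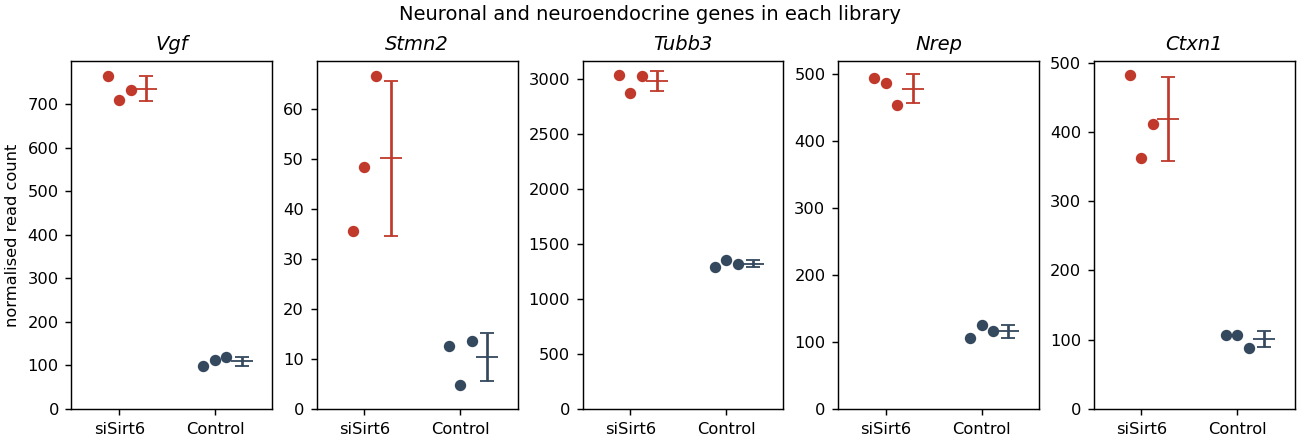
Normalised read count (y axis, from 0, its own scale per gene) of each gene in the 3 siSirt6 libraries (left, red points) and the 3 Control libraries (right, dark points), with the group mean and SD beside the points. The groups do not overlap for any of the 5 genes, and Stmn2 and Ctxn1 show the widest spread among siSirt6 libraries relative to their means.

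For all 5 genes every siSirt6 library lay above every Control library, as it did for 49% of tested genes. All 5 were at least 2-fold higher, against 4.21% of tested genes, and 4 were at least 4-fold higher, against 0.794%. Both counts depend on the processing: with listed totals Nrep and Ctxn1 fell short of 4-fold, and with a length and GC trend taken out Ctxn1 fell short of 4-fold (log2 1.74) and Tubb3 of 2-fold (log2 0.94). Other settings also gave log2 fold changes under 2. Stmn2 had 1.86 with a pseudocount of 5 and 1.82 without Control replicate 2. Nrep had 1.98 without Control replicate 1 and was just under 2 in edgeR and DESeq2. Ctxn1 had 1.92 in edgeR and DESeq2, 1.93 without siSirt6 replicate 1, 1.95 without Control replicate 3 and 1.998 with a pseudocount of 5. Since the genes were chosen for their rise, nothing follows from these counts. The median log2 fold change was 2.04 over the 5 genes and 0.08 over all genes tested. Summed over the 5, normalised reads were 4817, 4480.2 and 4697 in siSirt6 libraries and 1612, 1704 and 1657 in Control libraries, and Tubb3 made up most of that sum in every library. In bulk RNA, more cells that express a gene and more RNA per cell cannot be told apart.

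**Figure D2:**
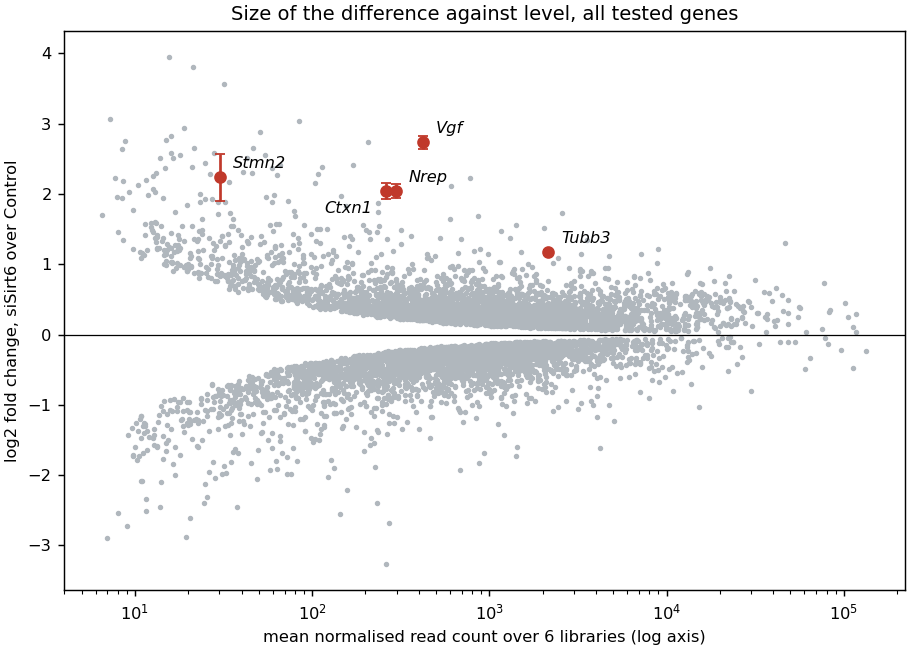
Log2 fold change of siSirt6 over Control (y axis) against the mean normalised read count over the 6 libraries (x axis, log scale) for each tested gene, with the 5 genes in red and bars showing their standard errors. Vgf, Nrep, Ctxn1 and Tubb3 lie above most genes of their level, Stmn2 lies in the sparse low range where large values are frequent, and the empty band around 0 shows that the tables hold few unchanged genes.

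The size of the difference separated Tubb3 from the others. Set against each gene's own Control mean, the 3 siSirt6 libraries spanned log2 differences of 2.68 to 2.79 for Vgf, 1.80 to 2.68 for Stmn2, 1.84 to 2.25 for Ctxn1, 1.97 to 2.09 for Nrep and 1.12 to 1.20 for Tubb3. Neighbours in this order overlapped except for Nrep and Tubb3, so the order among Stmn2, Ctxn1 and Nrep was within the spread of the libraries. The wide span of Stmn2 reached up to that of Vgf.

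Levels are compared between genes per kilobase of annotated exon. In this unit Tubb3 led with 1596 ± 49.6 normalised reads per kb in siSirt6 and 707 ± 18.0 in Control (SD, n = 3 each here and below). Ctxn1, the shortest at 1212 exonic bases, followed with 346 ± 49.7 per kb in siSirt6 and 83.1 ± 9.21 in Control. Vgf had 247 ± 9.64 per kb in siSirt6 and 36.9 ± 3.46 in Control. The level of Nrep was 122 ± 5.47 per kb in siSirt6 and 29.6 ± 2.48 in Control. Stmn2 came last at 8.96 ± 2.78 per kb in siSirt6 and 1.85 ± 0.852 in Control. This order was the same in both groups, and no neighbours in it overlapped between libraries of a group.

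The 5 genes share no single sequence property that was measured. Transcripts of Vgf, Ctxn1 and Tubb3 were rich in G and C, at 64.1%, 59.6% and 57.9%, against a median of 49.8% over the tested genes. Those of Stmn2 and Nrep were poor in them, at 41.3% and 42.7%. Longest transcripts ran from 1212 bases for Ctxn1 and 1868 for Tubb3 to 2834 for Vgf, 3311 for Nrep and 3413 for Stmn2, around a median of 3383.5. Once the trend of log2 fold change on transcript length and GC content over all genes had been taken out, the values were 2.70 for Vgf, 2.36 for Stmn2, 2.13 for Nrep, 1.74 for Ctxn1 and 0.94 for Tubb3.

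Reads from related genes were looked for in the GENCODE transcripts. Of all 50-base windows of the longest transcript, none of Vgf, Tubb3, Nrep or Ctxn1 occurred exactly in a transcript of another gene, and 49 of 3364 windows of Stmn2 did (1.46%). Tubb3 lies inside Gm20388, a predicted gene on the same strand that is not among the 7384 genes. Gm20388 runs from 119910841 to 124345722 on chromosome 8. The authors' handling of reads on overlapping genes is not stated in the sources at hand. The other 4 overlapped no annotated gene on either strand.

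The nearest listed genes had smaller ratios, from which nothing follows, since the 5 genes were chosen for their rise. Vgf lies on chromosome 5 (137026392 to 137033351, plus strand), 1642 bases from Ap1s1, a clathrin adaptor subunit that averaged 5796 ± 146 normalised reads in siSirt6 and 4396 ± 27.1 in Control (SD, n = 3 each), a 1.32-fold rise (limma adjusted p = 2.67e-15). On its other side Plod3, a collagen lysyl hydroxylase, rose 1.37-fold. Of 9 tested genes within 500 kb of the start of Vgf, 8 rose and 1 fell, against 50.5% and 49.3% of all tested genes. Ctxn1 (chromosome 8, 4257660 to 4259274, minus strand) sits between Snapc2, which rose 1.22-fold, and the mitochondrial import gene Timm44, which ends 457 bases away and rose 1.20-fold. All 4 tested genes within 500 kb of Ctxn1 rose, at most 1.94-fold for Lrrc8e.

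Tubb3 (chromosome 8, 123411424 to 123422015, plus strand) lies between Tcf25, which rose 1.17-fold, and Def8, which rose 1.16-fold. Within 500 kb of Tubb3, 7 of 13 tested genes rose and 6 fell. Stmn2 (chromosome 3, 8509360 to 8561606, plus strand) and Nrep (chromosome 18, 33437019 to 33464029, minus strand) lie in sparser regions, with 2 tested genes and 1 within 500 kb. The nearest listed genes to Stmn2 were Zc2hc1a, which fell to 0.765 of its Control level, and Mrps28, which rose 1.25-fold. On either side of Nrep, Camk4, a calcium-dependent kinase, fell to 0.295 and Epb41l4aos rose 1.72-fold. Whether any of the 5 genes differed from its neighbours was not tested.

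**Figure D3:**
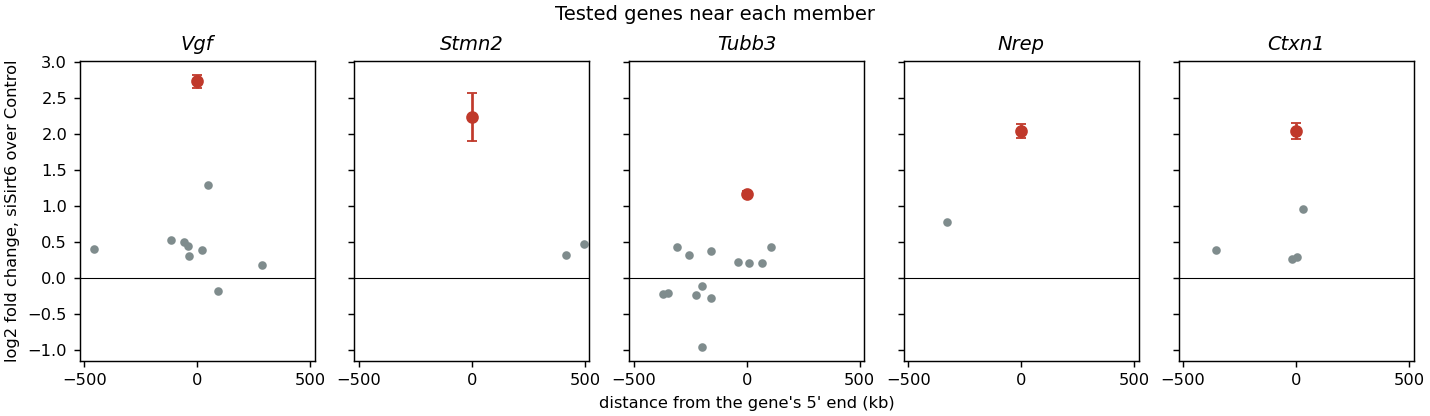
Log2 fold change of siSirt6 over Control (y axis) for tested genes within 500 kb of each of the 5 genes (grey) and for the gene itself (red, with standard error), against distance between 5′ ends in kb along the gene's own strand (x axis). The grey points lie below the red one in each panel, from which nothing follows, since the 5 genes were chosen for their rise.

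The relatives of the 5 genes were followed in lists drawn up with earlier results of these data known. Of 14 other tubulin genes, 10 were among the 7384 genes, and all 10 were tested and rose, where 50.5% of all tested genes rose. Their median log2 fold change was 0.43, against 0.08 over all genes. Tuba4a rose most, averaging 1235 ± 48.6 normalised reads in siSirt6 and 532 ± 13.3 in Control (SD, n = 3 each), a 2.32-fold ratio (limma adjusted p = 3.65e-20). Tubb2b, an isotype of developing neurons, rose 1.88-fold, Tuba1a 1.53-fold and the widespread isotype Tubb5 1.32-fold. Tubb4b at 1.10-fold and Tubb2a at 1.19-fold were the least, and after removal of the length and GC trend their log2 fold changes turned to -0.14 and -0.03. With that trend removed, 8 of the 10 passed as higher and Tubb4b passed as lower (limma adjusted p = 5.61e-06). When libraries were scaled to their listed totals, Tubb4b did not pass (log2 0.03, adjusted p = 0.285).

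Because the summed beta-tubulins rose too, the share of Tubb3 among them was taken. Nothing follows from a larger share of Tubb3, since Tubb3 was chosen for its rise. Over the 7 beta-tubulin genes in the tables, Tubb3 took 5.08%, 4.79% and 5.10% of normalised reads in siSirt6 libraries, against 2.83%, 3.01% and 2.95% in Control libraries. The groups were apart, at 4.99% ± 0.174 in siSirt6 and 2.93% ± 0.093 in Control (SD, n = 3 each). The share of Tubb2b was 8.23% ± 0.262 in siSirt6 and 5.82% ± 0.278 in Control. Tubb4b held 13.0% ± 0.208 in siSirt6 and 15.6% ± 0.213 in Control, while Tubb5, at 51.7% ± 0.092 in siSirt6 and 51.8% ± 0.774 in Control, overlapped between groups. Tubb2a held 9.66% ± 0.352 in siSirt6 and 10.8% ± 0.289 in Control, Tubb6 12.4% ± 0.274 in siSirt6 and 13.0% ± 0.193 in Control, and Tubb4a 0.0831% ± 0.0054 in siSirt6 and 0.0525% ± 0.0107 in Control, each without overlap. These are shares of read counts, not corrected for transcript length. No other stathmin (Stmn1, Stmn3, Stmn4) or cortexin (Ctxn2, Ctxn3) was among the 7384 genes.

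**Figure D4:**
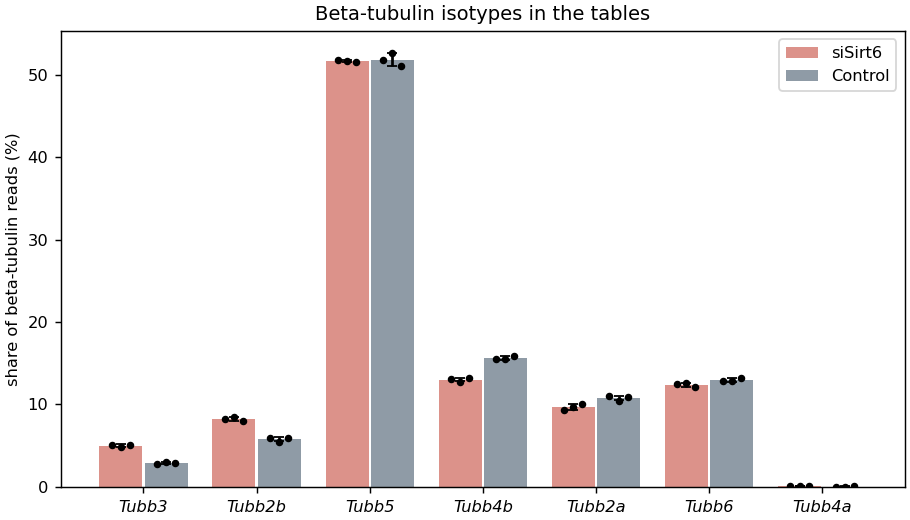
Share of the summed normalised reads of 7 beta-tubulin genes (y axis, percent) taken by each isotype in siSirt6 (left bars) and Control (right bars), as mean with SD and 1 point per library. Tubb3, Tubb2b and the scarce Tubb4a took larger shares in siSirt6 than in Control, Tubb4b, Tubb2a and Tubb6 smaller ones, and Tubb5 overlapped between groups. Nothing follows from the share of Tubb3, since Tubb3 was chosen for its rise.

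Genes of the regulated secretory pathway, through which VGF peptides pass, were divided. Of 14 on the list, only 4 were among the 7384 genes and 3 were tested. Of these 3, 1 rose and 2 fell, where 50.5% of all tested genes rose and 49.3% fell. Ptprn, a membrane protein of dense-core vesicles, rose to 3088, 3008 and 2989 normalised reads in siSirt6 libraries, against 1068, 1039 and 1082 in Control libraries, a 2.85-fold ratio with no overlap (limma adjusted p = 3.46e-27). The amidating enzyme Pam fell to 0.625 of its Control level and the carboxypeptidase Cpe to 0.884. The granin Chga was too low to test, at 5.93, 5.15 and 5.20 normalised reads in siSirt6 libraries. It had 0 reads in all 3 Control libraries, which can still arise where up to 3 reads are the expected count. Of 19 neuropeptide genes, only 3 were among the 7384 and 2 were tested. Cck rose 1.40-fold and Npy 1.89-fold, and neither passed with the length and GC trend removed (limma adjusted p = 0.472 and 0.157). Nts stayed below the limit, at a mean of 19.0 ± 8.44 in siSirt6 and 0.976 ± 1.69 in Control (SD, n = 3 each).

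General neuronal genes were divided as well, with 6 of 9 tested genes rising and 3 falling (median log2 fold change 0.31). Of 30 on the list, only 11 were among the 7384 genes. Among all tested genes 50.5% rose and 49.3% fell. Uchl1, a ubiquitin hydrolase abundant in neurons, stood at 2063, 1909 and 1715 normalised reads in siSirt6 libraries, against 713, 744 and 738 in Control libraries, and rose 2.59-fold (limma adjusted p = 4.33e-20). The growth cone protein gene Gap43 rose 2.94-fold from a low level, to 135 ± 7.76 in siSirt6 against 46.0 ± 9.17 in Control, and the adhesion gene Ncam1 2.04-fold. In the other direction the vesicle protein gene Vamp2 fell to 0.801 and Dpysl5 to 0.413 of its Control level. Nefm, among the 6 that rose, reached 10 normalised reads in only 1 Control library and so entered the test through the siSirt6 group. Dpysl3, also among the 6 (log2 0.10), stood at -0.02 when scaled to listed totals. Neurons' defining markers Rbfox3, Elavl3 and Syp were not among the 7384 genes. How those genes were chosen is not stated, so absence does not tell an undetected gene from an unchanged one. Snap25 was below the limit, at 7.16 ± 2.83 in siSirt6 and 0.644 ± 1.12 in Control (SD, n = 3 each). Of 18 factors that drive neural fate, only 4 were among the 7384 genes, and all 4 were tested and rose. Sox11 rose 2.97-fold and Gata3 2.15-fold, both from a low level. Sox11 averaged 52.0 ± 3.46 in siSirt6 and 17.5 ± 4.54 in Control, and Gata3 55.1 ± 5.90 in siSirt6 and 25.6 ± 5.75 in Control (SD, n = 3 each). Hand2 rose 1.37-fold. Sox4 (1.16-fold) did not pass when scaled to listed totals (log2 0.09, limma adjusted p = 0.126).

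REST itself fell slightly. Rest averaged 427 ± 43.5 normalised reads in siSirt6 and 519 ± 35.8 in Control (SD, n = 3 each), a log2 fold change of -0.28 (SE 0.076, limma adjusted p = 9.54e-04). Of 8 tested genes of REST and its partners, 7 fell and 1, Ctdsp1, rose (log2 0.09, but -0.03 when scaled to listed totals). Over all tested genes 49.3% fell and 50.5% rose. Rcor3, a CoREST protein, was lowest of the 8, at 0.613 of its Control level. With the length and GC trend removed, 2 fell and the other 6 did not pass, Rest among them (log2 -0.03, adjusted p = 0.718).

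In the TGF-beta axis, with which Nrep has been linked, 5 of 13 tested genes rose and 8 fell (median log2 fold change -0.23). The ligand gene Tgfb1 rose 1.37-fold, the latency protein gene Ltbp2 1.56-fold and the translation factor subunit Eif3b 1.31-fold. Receptor genes moved the other way: Tgfbr3 fell to 0.698, Tgfbr2 to 0.797 and Tgfbr1 to 0.723 of their Control levels. With the length and GC trend removed, Tgfb2 and Smad2 no longer passed, and Smad2 turned to a log2 value of 0.01. Across 14 lists, those of related genes together with the Schwann cell and glia markers described next, 76 of 184 genes were among the 7384. Of these 76, 71 were tested. Among the 71, 53.5% rose and 46.5% fell, close to the 50.5% and 49.3% of all tested genes. At least 2-fold higher were 15.5% of those 71, against 4.21% of all tested genes, a share not matched for level. Nefm and Ntrk2, which entered the test through the siSirt6 group, are among those 2-fold higher, as is Sox11, also low in Control. Of tested genes with a Control mean of at most 20, 21.5% were at least 4-fold higher. The lists were chosen with results known, so no test was made of this share and nothing follows from it.

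**Figure D5:**
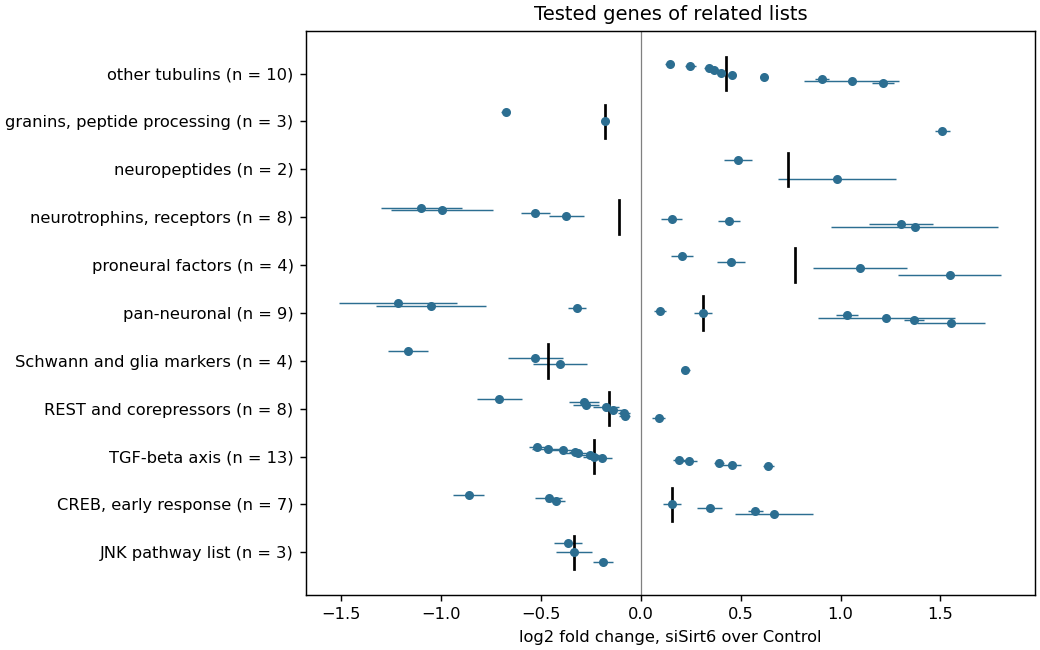
Log2 fold change of siSirt6 over Control (x axis) with standard error for each tested gene of the lists of related genes (rows), n giving the tested genes; black bars mark list medians. All tubulin and proneural points lie to the right of 0 (Tubb2a and Tubb4b turn negative once the length and GC trend is removed), most REST and corepressor points lie to the left, and the other larger lists have points on both sides.

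Markers of other cell types moved in the same libraries. All 10 tested endothelial markers of 12 listed rose, among them Kdr at 2.97-fold and Cldn5 at 5.98-fold, where 50.5% of all tested genes rose. Cldn5 reached 10 normalised reads in only 1 Control library and so entered the test through the siSirt6 group. Their summed level ranged from 4471 to 4621 normalised reads in siSirt6 libraries and from 2975 to 3217 in Control libraries, and none stood at 0 in any library. Of 4 tested Schwann cell and glia markers, 3 fell and 1 rose: S100b fell to 0.444 and Mbp to 0.749 of Control, and Pmp22 rose 1.17-fold, so that the sum, nearly all Pmp22, ranged from 10040 to 10429 in siSirt6 and from 8889 to 9179 in Control. Mbp and Pmp22 did not pass with the length and GC trend removed. Of 9 fibroblast markers 3 rose and 6 fell, and their sum ranged from 82225 to 83654 in siSirt6 and from 98395 to 99513 in Control. Most of that sum was Gsn, at 57433 ± 590 in siSirt6 and 72100 ± 521 in Control (SD, n = 3 each). Ly6a, 1 of the 3 that rose (log2 0.31), turned to -0.09 (adjusted p = 5.76e-04) with the length and GC trend removed, which gave 2 higher and 7 lower. All 3 tested macrophage and leukocyte markers rose, by at most 1.27-fold, with sums of 1978 to 2018 in siSirt6 and 1777 to 1822 in Control; none of the 3 passed as higher with the trend removed or when scaled to listed totals. Smooth muscle markers rose in 6 of 8 cases, while Smtn and Mylk fell to 0.813 and 0.803 of their Control levels. The sum of the 8 ranged from 104851 to 105970 in siSirt6 and from 65164 to 65382 in Control. Most of that sum was Acta2, the label of the cells. Acta2 stood at 96394 or more in siSirt6 libraries and at 58174 or more in Control libraries. Other contractile markers were far lower. Myh11 averaged 731 ± 9.12 in siSirt6 and 595 ± 16.6 in Control, and Tagln 348 ± 44.1 in siSirt6 and 179 ± 32.3 in Control (SD, n = 3 each). The part of these other cell types in the values of the 5 genes was not tested.

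The genes whose profiles lay closest to each of the 5 were taken over the 6 libraries from 6122 candidates with a mean of at least 100, by the root mean square distance between log2 profiles centred on Control. Vgf lay closest to H2-M1, a non-classical MHC class I gene, at a distance of 0.046. Tubb3 lay closest to Cd44, the hyaluronan receptor, at 0.040, then to Hspb7 at 0.043 and Esd at 0.051. Nrep and Ctxn1 shared their nearest 3 genes, H2-M9, Elobl and Zbp1, at 0.108 to 0.151 for Nrep and 0.182 to 0.233 for Ctxn1. No gene came near Stmn2, whose smallest distance was 0.494, to H2-M9. With 2 groups and 6 libraries this likeness is mostly a likeness of fold change.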

How the data were processed

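Total RNA was sequenced as 6 stranded mRNA libraries, per the labels' protocols. Trimmomatic, HISAT2, HTSeq and Cufflinks, and the build mm10, are named without version or role, per the submitters' processing notes. The deposited signal values are whole reads per gene divided by 1 factor per library: within 0.001 reads, 100% of values in every library were whole multiples of the smallest step. How the authors set the factors or chose the 7384 genes is not stated in the sources at hand; whole library depth is therefore unknown. No column lacked a sample.

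siSirt6 and Control were compared with limma 3.58.1 in R 4.3.3 (trend, robust, 2-sided) on log2(value + 1), over the 7179 genes that reached 10 in 3 or more libraries, with Benjamini-Hochberg adjustment at 0.05. The fit was tested on simulated data. edgeR 4.0.16 and DESeq2 1.42.0 were run as alternatives on recovered reads of 5 libraries; the step of siSirt6 replicate 1 lies too near 1 for an automatic check of the unit, so it was left out there. Other alternatives changed scaling, pseudocount, filter, block, libraries, the adjustment and the length and GC trend.

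Gene positions, transcript lengths and base composition were read from GENCODE vM21 (GRCm38, also called mm10), in which 7331 identifiers were found, and promoters from RefSeq (GRCm38.p6). The genes and lists were chosen with earlier results of these data known. Other named genes are Sirt6, up to 4 tested genes per list with the smallest p, the 3 nearest profiles and the nearest listed neighbours. Tubb2a, Tubb4b, Lrrc8e, Dpysl3, Dpysl5, Nefm, Ctdsp1, Jun, Bdnf, Ntrk2, Tubb4a and Tubb6 were named after their values were seen. So were Tgfb1, Tgfb2, Tgfbr1, Smad2, Fos, Smtn, Mylk, Myh11, Tagln and genes too low to test. Some genes that these rules take are not reported here.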

Additional observations from a re-analysis of the deposited data

How the results depend on the processing

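The 5 genes stayed higher in siSirt6 under all 17 alternatives that gave a value, and Stmn2 had no value with a filter on a mean of 5 CPM. Log2 fold changes ranged from 2.62 to 2.80 for Vgf, 1.82 to 2.47 for Stmn2, 0.94 to 1.20 for Tubb3, 1.92 to 2.13 for Nrep and 1.74 to 2.14 for Ctxn1. Shifts beyond the spread between replicates came with the length and GC trend removed, for Tubb3 (0.94) and Ctxn1 (1.74), and with libraries scaled to listed totals, for Tubb3 (1.06); that scaling moved the median of all genes from 0.08 to -0.03 and the share of calls that were higher from 50.6% to 43.2%. Leaving out 1 library gave Stmn2 1.82 to 2.47, the lowest without Control replicate 2. Calls over all genes, 3624 higher and 3542 lower, ranged from 2600 to 3736 and from 2755 to 3632; those among related lists, 38 and 33, from 30 to 43 and from 22 to 33. Sirt6 ranged from -2.43 to -2.06. Samples that share a replicate number did not deviate together (r = -0.0195, 0.0268 and -0.000793 across genes); a fit with the replicate block called 3629 genes higher and 3540 lower and left all 5 log2 fold changes as they were. Low read numbers limit the precision of Stmn2, and of Chga, Nts, Snap25 and other genes of low level.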

Other observations

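Genes of neurotrophin and CREB signalling, to which Vgf is known to respond in neurons, did not move one way. For comparison, 50.5% of all tested genes rose and 49.3% fell. Of 8 tested neurotrophins and receptors, 4 rose and 4 fell; Bdnf, among those that rose, did not pass when scaled to listed totals (log2 0.04, adjusted p = 0.506), and Ntrk2 entered the test through the siSirt6 group. The receptor genes Ngfr and Ntrk3 fell to 0.693 and 0.462 of their Control levels, while Ret, a receptor tyrosine kinase gene of neurons, rose 2.45-fold, to 157 ± 15.9 normalised reads in siSirt6 against 64.1 ± 14.8 in Control (SD, n = 3 each; limma adjusted p = 9.45e-09). In the list of CREB and early response genes 4 of 7 rose and 3 fell: Junb rose 1.49-fold and Fos 1.27-fold, and the CREB relative Atf1 fell to 0.727, Egr1 to 0.744 and Nr4a1 to 0.552. Jun, also among the 4 (log2 0.16), did not pass when scaled to listed totals (log2 0.04, adjusted p = 0.423), with the length and GC trend removed (adjusted p = 0.0813) or in DESeq2 (adjusted p = 0.0874). Of the kinase genes of the JNK pathway, which acts on stathmin-2 protein in axons, Map3k12, Mapk8 and Mapk9 fell to 0.776, 0.792 and 0.877 of Control; with the trend removed only Map3k12 of these 3 passed, and Mapk9 turned to a log2 value of 0.01.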
